A study of Mus musculus with 2 samples.

Results

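The genes described here are 10 genes of lysosomal amino acid sensing upstream of mTORC1, namely Rraga, Rragc, Rragd, Lamtor1, Lamtor2, Lamtor4, Depdc5, Nprl2, Nprl3 and Flcn. They were chosen by symbol, and all 10 were found among the 27998 genes of both libraries. Their symbols, not a threshold on measured values, define the set, which was proposed with earlier results of these data known. mTORC1 is a kinase complex that promotes protein synthesis and growth when nutrients are present, and in the marrow its activity is known for its part in the exit of stem cells from quiescence. Amino acids act on it through the Rag GTPases, which work as heterodimers of RagA or RagB with RagC or RagD and bring mTORC1 to the surface of the lysosome. The Ragulator complex, built from the LAMTOR proteins, anchors the Rags there, GATOR1 (DEPDC5, NPRL2 and NPRL3) turns off RagA and RagB by stimulating their GTP hydrolysis, and folliculin (FLCN) does the same for RagC and RagD, with the opposite effect on the pathway.

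Single-cell RNA was sequenced from LSK cells (Lin-, Sca-1+, c-Kit+), a sorted fraction of mouse bone marrow rich in haematopoietic stem cells (HSCs) and progenitors, taken from animals aged 3 months. Trmt6 encodes part of the methyltransferase for m1A in tRNA. There was 1 library per genotype: WT cells carried the floxed allele alone (Trmt6fl/fl), and cKO cells carried it together with MX1-cre, a recombinase that interferon induces and that is not restricted to blood cells. The study, unlike the labels, gives Mx1-Cre in both genotypes, and a figure legend adds treatment of the mice with pIpC, the inducing agent. That legend names Trmt6+/+ Mx1-Cre mice beside Trmt6fl/fl Mx1-Cre mice, and the methods name Trmt6fl/+ Mx1-Cre mice. The WT genotype of the labels (Trmt6fl/fl) thus differs from both. Genotype, library and possibly the recombinase cannot be told apart. No value below has a replicate check, no test across samples was possible, and every interval is a 95% interval that covers counting error only.

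Filtering left 8149 cells of the WT library with 42593633 UMIs (transcript molecules counted once each) and 8476 cells of the cKO library with 88144473 UMIs, with medians of 4247 and 10150.5 UMIs per cell. The libraries shared 24 barcodes. The targeted gene, Trmt6, had 63.9 CPM (61.6 to 66.4) in WT cells and 50.4 CPM (48.9 to 51.9) in cKO cells (log2 ratio -0.34, -0.41 to -0.27). CPM (counts per 1e6) are UMIs scaled to the total of UMIs summed over the cells, and counts from the 3-prime end do not show whether the deleted exon was present. Of the sort markers, Kit had 62.8 CPM in WT and 21.6 CPM in cKO, and Ly6a, which encodes Sca-1, had 34.5 and 142 CPM. Markers of mature and committed myeloid cells also differed: the 7 granulocyte-monocyte markers summed to 6544 CPM in WT and 745 CPM in cKO, all 7 lower in cKO, and the 9 neutrophil markers to 5629 and 7.95 CPM, all 9 lower, with 1 of them at 0 in cKO.

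The genes lie on 6 chromosomes (GRCm38, GENCODE M21). Their promoters are shown because several amino acid and lysosome genes are known to be controlled through short shared motifs, and because the 3 promoters that hold such a motif belong to genes described below with different ratios between the libraries. RefSeq promoter windows of 300 bases (250 before and 50 after the annotated start, GRCm38.p6) were found for all 10 genes and searched on both strands for the E-box core CACGTG, the CLEAR motif of lysosomal genes, which is the E-box core with GT before and AC after it, and the C/EBP-ATF motif TGATGNAA that ATF4 can bind. The E-box core was found in 3 of the 10 windows, against 7.15% of 32851 windows of the same length. The CLEAR motif was in 0 of 10 (0.326% of all windows) and the C/EBP-ATF motif in 1 of 10 (3.97%). Lamtor4 held the E-box core at 2 places and the C/EBP-ATF motif on the reverse strand, while Lamtor1 and Rragc held the E-box core once each. In the sequences, written 5′ to 3′ on the strand of the gene, capitals mark the matches. The windows are chr5:138255232-138255531 (plus strand) for Lamtor4, chr7:101905587-101905886 (plus strand) for Lamtor1 and chr4:123917183-123917482 (plus strand) for Rragc. A match describes these letters only.
Lamtor4: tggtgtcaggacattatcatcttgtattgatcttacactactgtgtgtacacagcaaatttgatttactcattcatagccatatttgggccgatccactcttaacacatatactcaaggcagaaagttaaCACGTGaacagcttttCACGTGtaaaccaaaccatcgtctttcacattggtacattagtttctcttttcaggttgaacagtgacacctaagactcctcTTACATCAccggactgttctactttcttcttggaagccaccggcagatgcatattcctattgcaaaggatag
Lamtor1: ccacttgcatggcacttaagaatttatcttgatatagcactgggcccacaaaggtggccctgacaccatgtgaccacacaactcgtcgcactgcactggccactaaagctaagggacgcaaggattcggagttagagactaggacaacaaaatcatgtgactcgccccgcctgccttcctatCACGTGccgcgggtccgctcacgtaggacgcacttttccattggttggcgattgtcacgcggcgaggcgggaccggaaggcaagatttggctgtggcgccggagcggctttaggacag
Rragc: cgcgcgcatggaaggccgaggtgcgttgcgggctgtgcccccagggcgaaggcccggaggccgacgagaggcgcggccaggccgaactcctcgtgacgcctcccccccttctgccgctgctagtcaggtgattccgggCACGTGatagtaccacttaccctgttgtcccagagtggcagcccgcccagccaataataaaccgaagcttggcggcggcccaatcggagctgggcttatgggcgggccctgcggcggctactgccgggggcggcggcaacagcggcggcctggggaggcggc

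Over all kept cells, the log2 ratios (cKO over WT, 0.5 prior counts) of the 9 genes with enough counts lay between -0.50 and 0.26. They were above 0 for Rraga and Flcn and below 0 for Depdc5, Lamtor4, Nprl2, Lamtor2 and Rragc, with intervals that did not reach 0. Of all 10422 genes tested, 42.1% had a ratio above 0 with this scaling. The share of all genes whose interval did not reach 0 was not counted. The ratio of Rragc depended on the scaling of the libraries and was -0.02 with TMM factors, -0.04 with median-of-ratios factors and -0.02 without mitochondrial and ribosomal protein genes. The ratio of Flcn fell to 0.03 with each cell scaled before averaging. A ratio of at least 0.5 in size was taken as the limit for counting a gene as changed. Of the 9 genes, which had a mean of at least 2 CPM, 0 were past this limit in either direction, whereas 9.41% of the 10422 genes tested lay past it with higher and 18.7% with lower values in cKO (28.1% together). The median log2 ratio of the 9 genes was -0.12, and that of all genes tested was -0.08. The tenth, Rragd, was nearly absent. The levels spanned a wide range, from Lamtor2 at over 200 CPM to Depdc5 at under 5 CPM in both libraries, as the plot of levels over all kept cells shows. UMIs counted from the 3-prime end do not scale with transcript length, so this order is one of counted molecules.

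**Figure D1:**
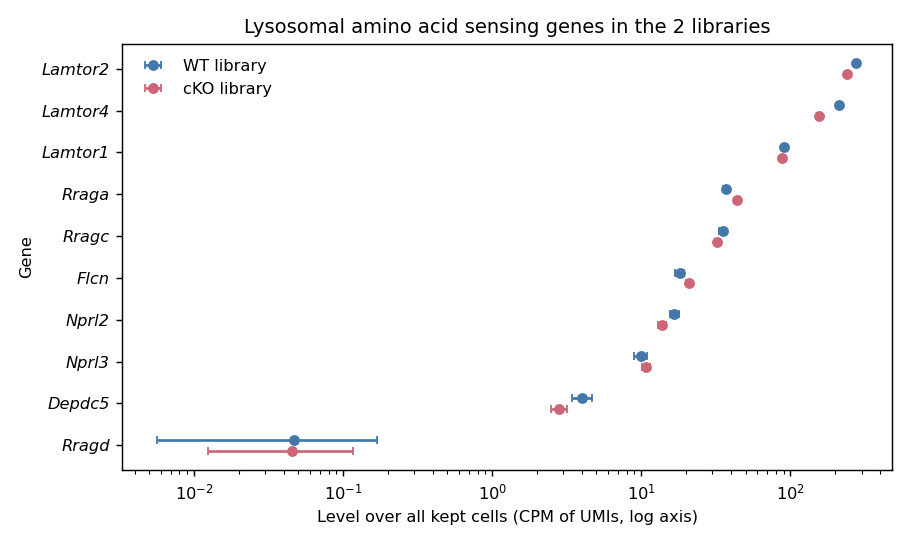
Level of each of the 10 genes over all kept cells, in CPM of UMIs on a log axis, in the WT library (blue) and the cKO library (red); bars are 95% Poisson intervals. The points of each gene lie close together, from 276 and 239 CPM for Lamtor2 down to 0.05 CPM in both libraries for Rragd.

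The Ragulator genes had the highest counts of the 10. Lamtor2 (chromosome 3, 88549819 to 88553074, minus strand), which encodes a roadblock-domain subunit that pairs with LAMTOR3, had 11771 UMIs in WT and 21038 in cKO, or 276 and 239 CPM. Its log2 ratio was -0.21 (-0.24 to -0.18). Lamtor4 (chromosome 5, 138255482 to 138259398, plus strand), whose product pairs with LAMTOR5, had 9019 and 13720 UMIs, or 212 and 156 CPM. Its log2 ratio of -0.44 (-0.48 to -0.41) lay at percentile 21.5 among the genes tested. Lamtor1 (chromosome 7, 101905904 to 101926675, plus strand) encodes the lipid-anchored subunit that wraps around the others and ties them to the lysosomal membrane. It had 3851 and 7731 UMIs, or 90.4 and 87.7 CPM, and its log2 ratio was -0.04 (-0.10 to 0.01), which spanned 0 and took the other sign with each of the other scalings of the libraries, up to 0.05. Over all kept cells the members of the complex thus did not share 1 ratio: Lamtor4 was lower in cKO, Lamtor2 less so, and Lamtor1 was at nearly the same level. When the marker gates described below were averaged with the WT mix in both libraries, Lamtor4 had -0.23, Lamtor2 -0.24 and Lamtor1 -0.07. The gene body of Lamtor1 overlaps that of Lrrc51 (3.87 and 4.80 CPM) on the other strand, and whether strand was used in counting is not given in the sources used here.

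The Rag GTPase genes differed widely from each other in counts. Rraga (chromosome 4, 86575668 to 86577285, plus strand) encodes RagA and had 1575 UMIs in WT and 3892 in cKO, or 37.0 and 44.2 CPM. Its log2 ratio was 0.26 (0.17 to 0.34), at percentile 79.3 among the genes tested, the highest of the 10. Rragc (chromosome 4, 123917446 to 123936997, plus strand) encodes RagC and had 1497 and 2853 UMIs, or 35.1 and 32.4 CPM, with a log2 ratio of -0.12 (-0.21 to -0.03). Rragd (chromosome 4, 32983037 to 33022180, plus strand), which encodes RagD, had 2 UMIs in WT and 4 in cKO. It was 0.13% (0.02 to 0.48) of the UMIs of Rragc and Rragd together in WT and 0.14% (0.04 to 0.36) in cKO, so that nearly all counted RagC or RagD transcripts in both libraries were Rragc. No difference in Rragd was detectable at this depth, with an interval of the log2 ratio from -2.85 to 3.42. On the other side of the heterodimer, Rragb, the paralogue of Rraga, took 9.85% (8.49 to 11.3) of their joint UMIs in WT and 7.55% (6.77 to 8.39) in cKO.

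GATOR1 transcripts were low, and its subunits differed in their ratios. Nprl2 (chromosome 9, 107542226 to 107545706, plus strand) encodes the subunit that carries the catalytic residue of the complex. It had 710 UMIs in WT and 1215 in cKO, or 16.7 and 13.8 CPM, with a log2 ratio of -0.27 (-0.41 to -0.14). Nprl3 (chromosome 11, 32225628 to 32267707, minus strand), the partner of NPRL2, had 421 and 948 UMIs, or 9.88 and 10.8 CPM, and its log2 ratio of 0.12 (-0.05 to 0.29) spanned 0. Depdc5 (chromosome 5, 32863701 to 32994236, plus strand), whose product contacts the Rags, had 170 and 249 UMIs, or 3.99 and 2.82 CPM. Its log2 ratio of -0.50 (-0.79 to -0.21) fell just short of the limit and was the lowest of the 10. It passed the limit narrowly in 5 of 11 alternatives, down to -0.55 without mitotic cells, which makes the count past the limit 1 of 9 there. As a share of all GATOR1 UMIs, Nprl3 made up 32.4% (29.8 to 34.98) in WT and 39.3% (37.3 to 41.3) in cKO, and Depdc5 made up 13.1% (11.3 to 15.02) and 10.3% (9.14 to 11.6). The gene body of Nprl3 overlaps that of Mpg on the other strand, so that the strand setting bears on its counts too, and Mpg had 18.6 CPM in WT and 23.9 CPM in cKO.

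Flcn (chromosome 11, 59791408 to 59810016, minus strand), mutated in Birt-Hogg-Dubé syndrome, had 769 UMIs in WT and 1835 in cKO, or 18.1 and 20.8 CPM. Its log2 ratio was 0.20 (0.08 to 0.33). In cells with mitotic markers (24.4% of WT and 20.7% of cKO cells) Flcn stood at 13.7 CPM in WT cells and 17.8 CPM in cKO cells (log2 ratio 0.38, 0.13 to 0.63), and in the other cells at 19.96 and 21.8 CPM, a log2 ratio of 0.13 (-0.02 to 0.27). Nprl3 had log2 ratios of 0.38 (0.05 to 0.73) in the mitotic and 0.00 (-0.19 to 0.20) in the other cells. These intervals overlapped between the mitotic and the other cells for both genes. Lamtor4, by contrast, had -0.46 and -0.41.

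Because the cKO cells held more UMIs each, levels were also compared between cells of like depth, in 3 bins of UMIs per cell that were chosen after the data were seen. This comparison moved Rraga and Flcn upwards. In cells with 4000 to under 8000 UMIs (3170 WT and 2147 cKO cells), Rraga had 36.0 CPM in WT and 53.4 CPM in cKO, and its log2 ratio was 0.57 (0.41 to 0.73). Flcn had 15.97 and 26.8 CPM there, with a log2 ratio of 0.75 (0.52 to 0.98). Both lay past the limit of 0.5, which 13.2% of the genes tested in these cells exceeded with higher and 14.4% with lower values in cKO, and 0 of the 9 genes lay past it in the other direction. The makeup of this bin differed as well: HSC-gated cells were 0.347% of its WT and 14.3% of its cKO cells, and the 12 mitotic markers summed to 1705 CPM in WT against 476 CPM in cKO, all 12 lower. The 9 neutrophil markers summed to 5579 against 4.61 CPM and the 7 granulocyte-monocyte markers to 2814 against 570 CPM, all lower in cKO, and neutrophil and granulocyte-monocyte cells are the WT gates with the least Flcn, as given below. The neutrophil level of Flcn, 9.03 CPM (2.93 to 21.1), rested on 5 UMIs, so that its rank is not resolved. The part of these differences in the ratios was not tested. In cells with 8000 to under 16000 UMIs (1125 and 5291 cells) the log2 ratios were 0.39 (0.24 to 0.55) for Rraga and 0.69 (0.45 to 0.94) for Flcn. The lowest bin, 2000 to under 4000 UMIs, held 211 cKO cells against 3560 WT cells, and there the intervals of both genes spanned 0, with a log2 ratio of 0.34 for Rraga and -0.37 for Flcn. Its cells differed in makeup too, with 74.7% of WT and 46.0% of cKO cells in no gate, mast or basophil markers at 95.7 and 2103 CPM, MHC class II markers at 409 and 2474 CPM and B lineage markers at 88.3 and 781 CPM. Of the 9 genes, 0 were higher and 1 was lower past the limit in that bin (17.6% and 18.5% of all genes tested), namely Depdc5, with 49 UMIs in WT and 0 in cKO. The interval of its log2 ratio (-2.66) had an upper end of 0.29 and so reached 0. Within the WT library the level of Flcn went from 27.4 CPM in the lowest bin to 15.97 and 12.8 CPM in the deeper ones, while in cKO it was 20.4, 26.8 and 20.6 CPM.

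**Figure D2:**
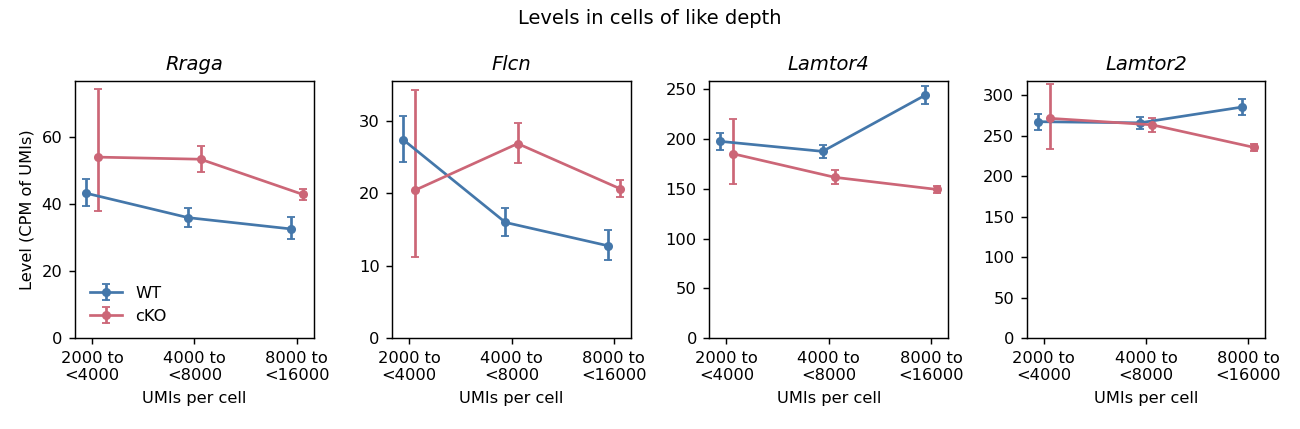
Levels of Rraga, Flcn, Lamtor4 and Lamtor2 (CPM of UMIs) in cells grouped by UMIs per cell, in WT (blue) and cKO (red), with 95% Poisson intervals. Rraga and Flcn are higher in cKO in the bins from 4000 UMIs up, at 53.4 against 36.0 CPM and 26.8 against 15.97 CPM in the middle bin, and Lamtor4 is lower, at 149 against 244 CPM in the deepest bin.

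Lamtor4 showed the opposite dependence. Its log2 ratio was -0.09 (-0.36 to 0.17) in the lowest bin, -0.22 (-0.29 to -0.14) in the middle bin and -0.71 (-0.77 to -0.65) in the deepest. Lamtor2 had 0.03, -0.01 and -0.28 in the same bins. The libraries differed in makeup in the deepest bin as well: 46.5% of its WT cells and 0.302% of its cKO cells fell in the granulocyte-monocyte gate described below, and the 7 granulocyte-monocyte markers summed to 12673 CPM in WT and 598 CPM in cKO, the 9 neutrophil markers to 9108 and 5.61 CPM. In that bin 1 of the 9 genes (Flcn) was higher and 2 (Lamtor4 and Depdc5) were lower past the limit, against 17.8% and 14.3% of all genes tested.

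Cells that met no marker gate (ungated cells) were therefore compared within the bins as well. In ungated cells with 8000 to under 16000 UMIs (428 WT and 4862 cKO cells), Lamtor4 had 204 and 148 CPM, a log2 ratio of -0.46 (-0.56 to -0.36), and Lamtor2 had 248 and 235 CPM, a ratio of -0.08 (-0.17 to 0.02). In ungated cells with 4000 to under 8000 UMIs Lamtor4 had -0.15 (-0.24 to -0.05). Flcn was at 0.72 (0.45 to 1.0002) in the middle and 0.57 (0.20 to 0.99) in the deepest bin of ungated cells, and Rraga at 0.61 (0.42 to 0.79) and 0.48 (0.23 to 0.76). In the lowest bin of ungated cells, with 13 and 7 cKO UMIs, Rraga was at -0.09 (-1.06 to 0.65) and Flcn at -0.27 (-1.70 to 0.70). The higher level of Rraga and Flcn in cKO was thus also measured among ungated cells in the middle and the deepest bin but not in the lowest. Over ungated cells of all depths, the log2 ratio of Flcn was 0.07 (-0.08 to 0.22) and spanned 0, while that of Rraga was 0.22 (0.12 to 0.33). From the lowest to the deepest bin, Flcn in ungated cells stood at 27.9, 15.8 and 13.6 CPM for WT. For cKO it stood at 21.7, 26.1 and 20.4 CPM. The ratio of Lamtor4 in the middle and the deepest bin was smaller in size among ungated cells than over all cells of these bins. Ungated cells are those that fell short of the gates and still carried their markers, among them granulocyte-monocyte marker transcripts, at 2274 CPM in WT against 633 CPM in cKO over all depths, with all 7 markers lower in cKO, and their part in the ratios was not tested.

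Lineages were then separated by marker gates. Cells were first thinned to 2000 UMIs, without the 186 WT and 100 cKO cells below that depth, and each was assigned to the list of marker genes that it exceeded most, given at least 2 markers, at least 2 UMIs and 3 times the mean over the libraries. Levels were then taken from all UMIs of the cells in a gate. Gates with at least 50 cells in each library were compared: HSC (106 WT and 515 cKO cells), megakaryocyte-primed (337 and 74), MHC class II (270 and 219), lymphoid-primed (890 and 119) and the cells in no gate (5264 and 7192). Granulocyte-monocyte (849 WT cells, 47 cKO cells), neutrophil (70 and 0) and mast or basophil cells (120 and 34) are given for WT only, and B lineage cells (17 and 112) for cKO only, and erythroid-primed (36 and 23) and T or NK cells (4 and 41) were too few in both. The HSC gate rested largely on Ifitm1, with 4049 CPM in WT and 5263 CPM in cKO inside it and 999 and 1254 CPM in ungated cells. The other HSC markers, by which cells also entered the gate, were higher inside it than in ungated cells. Hlf, for example, had 385 against 91.8 CPM in WT and 186 against 74.9 CPM in cKO. Such a difference follows from the gating and does not show which cells the gate held. Given the weight of Ifitm1, a gate without it was also formed once the data had been seen. It held 558 WT and 853 cKO cells.

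In WT cells Lamtor4 and Lamtor2 had the widest range of levels by lineage in CPM. Lamtor4 was highest in the neutrophil gate, at 412 CPM (360 to 469), then in granulocyte-monocyte cells, at 275 CPM (265 to 286), and in mast or basophil cells, at 217 CPM (185 to 253), and these 3 intervals did not overlap. The other WT gates lay between 188 and 208 CPM, each overlapping its neighbour in this order. Lamtor2 had a similar top, with 381 CPM (331 to 436) in neutrophil, 326 CPM (266 to 395) in HSC and 314 CPM (303 to 326) in granulocyte-monocyte cells, down to 242 CPM (227 to 257) in lymphoid-primed cells. Neighbours in the order of Lamtor2 overlapped throughout. Lamtor1 had a narrower range in CPM, though not by fold against Lamtor2. It ran from 110 CPM (93.0 to 129) in MHC class II cells to 59.5 CPM (35.8 to 92.9) in the 106 HSC-gated cells, with overlap between neighbours. In cKO the HSC gate had 282 CPM of Lamtor2 (265 to 299), against 238 CPM (235 to 241) in ungated cells. Megakaryocyte-primed cells overlapped the HSC gate, at 236 CPM (203 to 274). They had 260 against 280 CPM in the HSC gate with another thinning seed, and 257 against 285 CPM with gating on all UMIs.

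**Figure D3:**
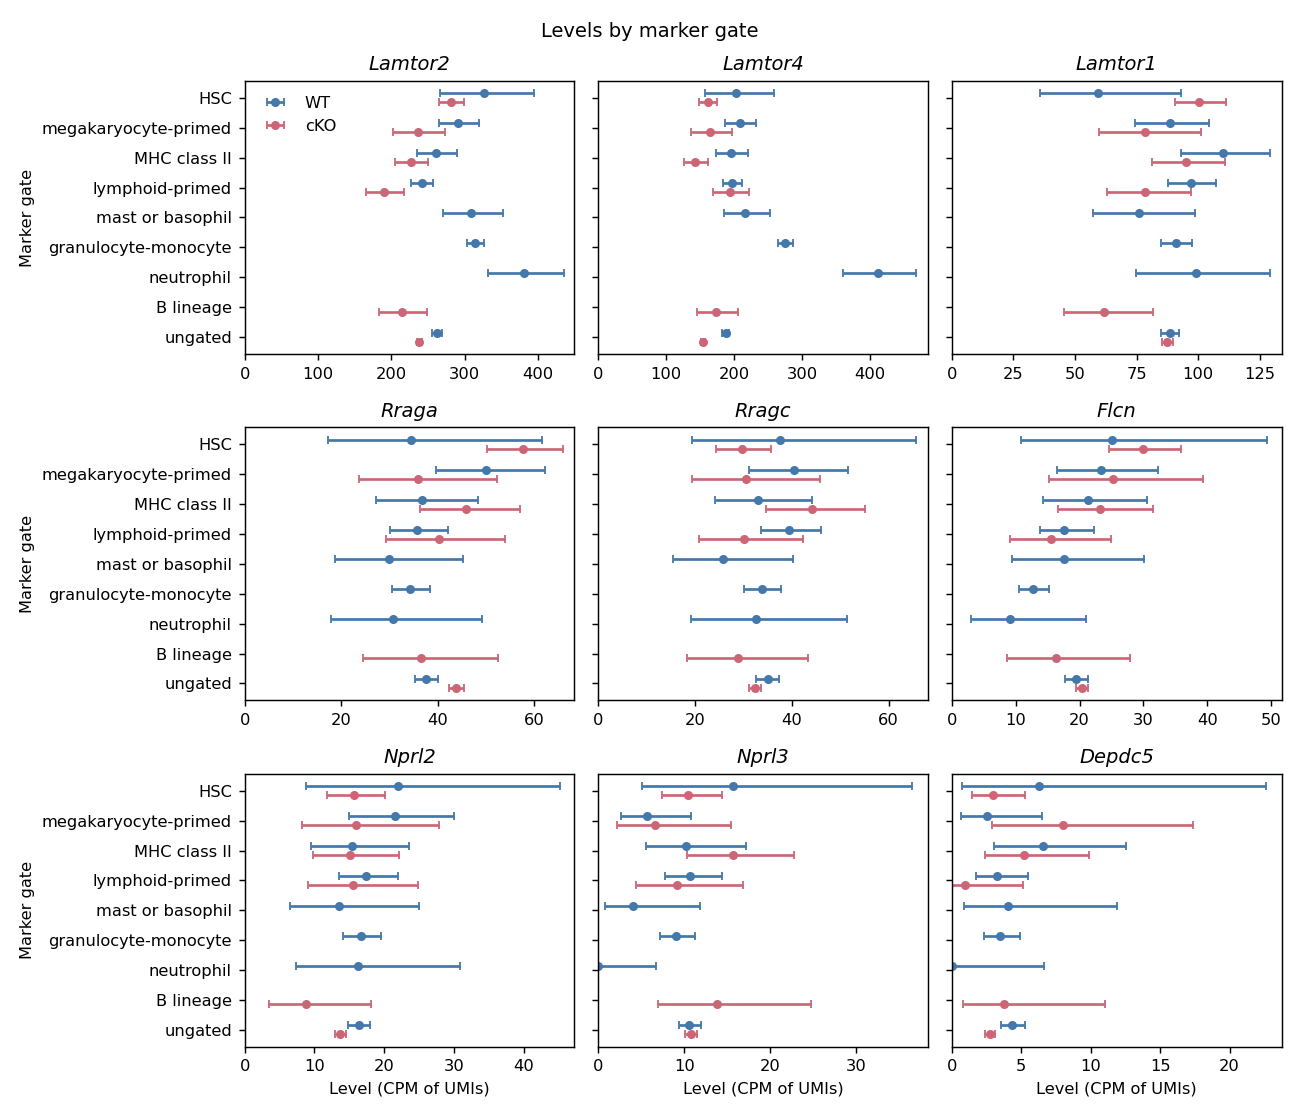
Level (CPM of UMIs, each panel with its own axis from 0) of 9 genes by marker gate in WT (blue) and cKO (red), with 95% Poisson intervals; gates with too few cells in a library have no point for it. Lamtor4 in WT runs from 412 CPM in neutrophil cells to 188 CPM in ungated cells, while Flcn is lowest in neutrophil (9.03 CPM, 2.93 to 21.1, on 5 UMIs) and granulocyte-monocyte cells (12.7 CPM).

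Flcn had another order in WT. It was at 25.05 CPM (10.8 to 49.4) in HSC, 23.4 CPM (16.5 to 32.3) in megakaryocyte-primed and 21.3 CPM (14.2 to 30.5) in MHC class II cells, and at 12.7 CPM (10.5 to 15.3) in granulocyte-monocyte cells, below the 19.4 CPM (17.7 to 21.3) of ungated cells. In cKO it was at 29.9 CPM (24.6 to 36.0) in the HSC gate and 20.4 CPM (19.4 to 21.4) in ungated cells. Its order among the cKO gates depended on the gating: megakaryocyte-primed cells were above the HSC gate with another thinning seed (32.4 against 29.1 CPM) and with thinning to 1000 UMIs (38.6 against 26.2 CPM), and the HSC gate without Ifitm1 had 23.8 CPM. Rraga ranged in WT from 49.98 CPM (39.6 to 62.3) in megakaryocyte-primed to 29.8 CPM (18.7 to 45.2) in mast or basophil cells, and Rragc from 40.5 CPM (31.2 to 51.7) to 25.8 CPM (15.5 to 40.2) in the same gates. All neighbours overlapped for both, so no order of lineages was resolved for them in WT. In cKO Rraga was at 57.6 CPM (50.1 to 65.9) in the HSC gate and 43.9 CPM (42.4 to 45.3) in ungated cells, but with another thinning seed megakaryocyte-primed cells were level with the HSC gate (53.5 and 53.1 CPM). Rragc was at 44.1 CPM (34.7 to 55.2) in cKO MHC class II cells and 32.4 CPM (31.2 to 33.7) in ungated cells, which depended on the gating too: with gating on all UMIs MHC class II cells had 34.5 CPM, ungated cells 32.1 CPM and megakaryocyte-primed cells 45.7 CPM. Rragd had UMIs only among ungated cells in WT (2 UMIs) and, of the gates given for cKO, in ungated (3 UMIs) and B lineage cells (1 UMI).

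The GATOR1 genes were counted too rarely in most gates to give an order. Nprl2 lay between 13.6 and 21.9 CPM in the WT gates and between 8.81 and 15.9 CPM in the cKO gates. Nprl3 lay between 5.69 and 15.7 CPM in the WT gates with more than 3 UMIs, with 3 UMIs in mast or basophil cells and 0 in the neutrophil gate, whose upper limit was 6.66 CPM. Depdc5 lay between 2.53 and 6.60 CPM in the other WT gates and was at 0 in the neutrophil gate too. Of the GATOR1 UMIs, Nprl2 made up 72.3% (57.4 to 84.4) in WT megakaryocyte-primed cells and 55.6% (46.4 to 64.4) in WT lymphoid-primed cells, with overlapping intervals.

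Between the libraries, Lamtor4 was lower in cKO in 3 of the 5 gates compared with an interval that did not reach 0, and Lamtor2 in 3. In MHC class II cells Lamtor4 had 196 CPM in WT cells and 143 CPM in cKO cells (log2 ratio -0.45, -0.71 to -0.20). It had 208 and 165 CPM in megakaryocyte-primed cells, a ratio of -0.33 (-0.65 to -0.04), and 188 and 154 CPM in ungated cells, a ratio of -0.29 (-0.34 to -0.24). Its interval reached 0 in the HSC gate and in lymphoid-primed cells, which had 198 CPM in WT and 195 CPM in cKO and a ratio of -0.02 (-0.25 to 0.20). The calls in single gates depended on how cells were gated. With the gate at 2 times the mean, Lamtor4 in lymphoid-primed cells had -0.22 (-0.39 to -0.05), and in the HSC gate -0.40 (-0.60 to -0.19). In megakaryocyte-primed cells its interval reached 0 with another thinning seed (-0.13, -0.43 to 0.15), with thinning to 1000 UMIs (-0.02, -0.45 to 0.39) and with median-of-ratios factors (-0.26, -0.57 to 0.04). Lamtor2 was lower in those lymphoid-primed cells, at 242 and 190 CPM, a ratio of -0.34 (-0.57 to -0.13). The other gates in which its interval did not reach 0 were megakaryocyte-primed (-0.30, -0.56 to -0.05, but -0.22, -0.48 to 0.03 with median-of-ratios factors) and ungated cells (-0.14, -0.18 to -0.10). In cells with 4000 to 8000 UMIs, Lamtor4 in ungated cells (-0.15, -0.24 to -0.05) was the only one of these calls for both genes whose interval did not reach 0. When the gates were averaged with the WT mix in both libraries, Lamtor4 had a log2 ratio of -0.23, about that of Lamtor2 (-0.24). Within these gates too, granulocyte-monocyte markers differed, summing to between 741 and 2759 CPM in the WT and between 247 and 688 CPM in the cKO cells of the HSC, MHC class II, lymphoid-primed and megakaryocyte-primed gates. The megakaryocyte-primed gate held unlike cells in the libraries, since its own 9 markers summed to 3497 CPM in WT and 912 CPM in cKO, where the HSC markers were higher than these, at 1116 CPM (774 CPM in WT). In the MHC class II gate the HSC markers summed to 863 and 2139 CPM, the lymphoid-primed markers to 653 and 176 CPM and the mitotic markers to 1426 and 862 CPM. In lymphoid-primed cells the HSC markers summed to 822 and 358 CPM, the B lineage markers to 72.4 and 177 CPM, the mitotic markers to 1509 and 972 CPM and the neutrophil markers to 225 and 6.40 CPM. The part of these differences in the ratios was not tested.

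**Figure D4:**
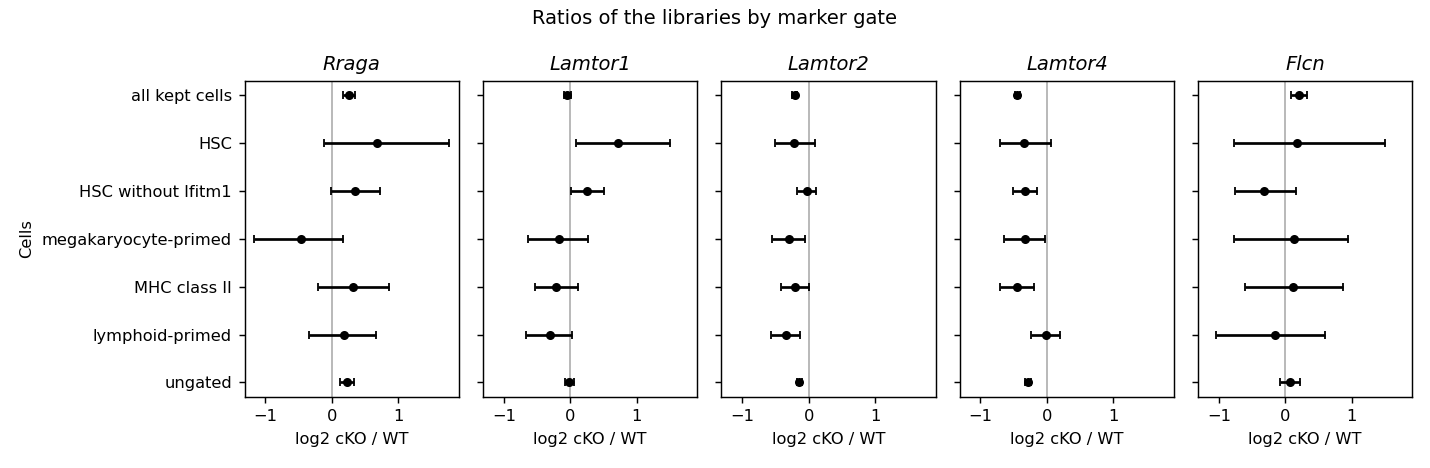
log2 ratio (cKO over WT) of Rraga, Lamtor1, Lamtor2, Lamtor4 and Flcn over all kept cells, in 5 groups of gated and ungated cells and in the HSC gate without Ifitm1, with 95% intervals for counting error. Lamtor4 lies at or below 0 throughout, from -0.45 in MHC class II to -0.02 in lymphoid-primed cells, and Lamtor1 is highest in the HSC gate, at 0.72.

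In the HSC gate the values rested on few WT counts, and its cells differed in other ways. The gate's own 9 markers summed to 5204 CPM in WT and 6042 CPM in cKO, with 5 of them lower in cKO. The median UMIs of the cells were 2788 in WT and 6685 in cKO, and mitotic cells were 0% and 11.8% of them. The 12 mitotic markers summed to 257 and 782 CPM. The 7 lymphoid-primed markers summed to 301 and 44.1 CPM, and the 9 neutrophil markers to 366 and 4.04 CPM. The part of these differences in the ratios was not tested. Lamtor1 had 19 UMIs in WT and 373 in cKO, or 59.5 and 100 CPM, a log2 ratio of 0.72 (0.09 to 1.503), and Rraga had 11 and 214 UMIs, or 34.4 and 57.6 CPM, a ratio of 0.68 (-0.13 to 1.77). Both were past the limit of 0.5, as were Nprl2 (-0.58, -1.62 to 0.89) and Nprl3 (-0.70, -1.92 to 1.12) on the lower side, so that 2 of 8 genes were higher and 2 lower, against 19.3% and 31.0% of the 9056 genes tested there. With the gate without Ifitm1 the ratio of Lamtor1 was 0.25 (0.00 to 0.51), that of Rraga 0.34 (-0.01 to 0.73), that of Nprl2 0.24 (-0.37 to 0.93) and that of Nprl3 -0.17 (-0.89 to 0.65). None of these 4 was past the limit there. Of the 9 genes tested in that gate, 0 were higher and 1, Depdc5 (-1.24, -2.40 to 0.02, on 11 and 17 UMIs), was lower past it, against 11.3% and 24.3% of all genes tested. Lamtor4 had an interval that did not reach 0, at 191 CPM in WT cells and 152 CPM in cKO cells (-0.33, -0.50 to -0.15). The gate without Ifitm1 held 1901109 UMIs in 558 WT cells and 6850749 UMIs in 853 cKO cells, and depth was not matched in it. Flcn stood at 29.5 and 23.8 CPM there, a ratio of -0.32 (-0.75 to 0.16). In the HSC gate itself the ratio of Lamtor1 turned to -0.16 with cells thinned to 1000 UMIs and to -0.55, on 3 WT UMIs, with a gate at 5 times the mean, and among the 9 alternatives its interval stayed above 0 only with median-of-ratios factors and without Ifitm1, reaching 0 for example with another thinning seed (-0.18 to 1.08) and with doublets kept (-0.03 to 1.28). The interval of Rraga was above 0 in 4 of the 9, with cells thinned to 1000 UMIs (1.04, 0.35 to 1.91), with another seed (1.101, 0.13 to 2.53), with gating on all UMIs (1.22, 0.18 to 2.79) and with a gate at 2 times the mean (0.50, 0.06 to 0.99), on between 6 and 44 WT UMIs.

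In the other gates few of the genes were past the limit. In MHC class II cells Nprl3 was the only one of 8, at 10.3 CPM in WT cells and 15.7 CPM in cKO cells (0.59, -0.37 to 1.65), against 15.6% of genes tested with higher and 19.1% with lower values. Which genes passed there depended on the gating: Nprl3 ran from 0.12 with thinning to 1000 UMIs to 1.57 (0.31 to 3.24) with another thinning seed, Flcn was at 1.12 (0.16 to 2.25) with thinning to 1000 UMIs and 1.06 (0.02 to 2.26) at 5 times the mean, and Rragc at 0.52 (0.08 to 0.99) at 2 times the mean and 0.94 (0.14 to 1.799) in cells with 4000 to 8000 UMIs. On the lower side Lamtor4 passed the limit with another seed (-0.63, -0.89 to -0.37), at 5 times the mean (-0.59, -0.94 to -0.24) and with gating on all UMIs (-0.57, -0.84 to -0.31). Lymphoid-primed cells had 0 of 8 past the limit (14.4% of all genes higher, 23.8% lower) and megakaryocyte-primed cells 0 of 7 (13.7% and 23.6%). Rraga passed it in lymphoid-primed cells, with an interval above 0, with thinning to 1000 UMIs (0.89, 0.37 to 1.39), at 5 times the mean (0.78, 0.05 to 1.42) and with gating on all UMIs (0.54, 0.09 to 0.96), where Rragc passed it on the lower side (-0.51, -1.08 to -0.01). Rragc at 5 times the mean (-0.63, -1.59 to 0.14) and Nprl2 with thinning to 1000 UMIs (-0.92, -2.40 to 0.14) were also past it in these cells, with intervals that reached 0. Others were past it on the higher side, again with intervals that reached 0. These were Nprl3 with thinning to 1000 UMIs (0.63, -0.52 to 1.63) and 3 genes in cells with 4000 to 8000 UMIs. The 3 were Nprl2 (0.71, -0.59 to 1.74), Rraga (0.58, -0.31 to 1.33) and Flcn (0.55, -0.84 to 1.62). In megakaryocyte-primed cells with 4000 to 8000 UMIs Rragc was at -2.19 (-8.10 to -0.21), on 1 cKO UMI. Nprl2 (-3.01, upper end 0.01, on 0 cKO UMIs) and Flcn (0.84, -1.04 to 2.21) were past the limit in the same cells, with intervals that reached 0. With thinning to 1000 UMIs this also held for Rraga (-0.72, -2.01 to 0.30), Lamtor1 (-0.65, -1.49 to 0.06) and Flcn (0.66, -0.54 to 1.76). In ungated cells Depdc5 was lower past the limit, at 4.32 CPM in WT cells and 2.73 CPM in cKO cells (-0.66, -1.004 to -0.31), and 0 of 9 genes were higher (9.38% of all genes higher, 22.8% lower). Rraga was higher in ungated cells, at 37.6 and 43.9 CPM (0.22, 0.12 to 0.33). In granulocyte-monocyte cells, which reached 50 cells in both libraries only with the gate at 2 times the mean (1155 WT and 91 cKO cells), Lamtor2 had 302 and 207 CPM (-0.55, -0.72 to -0.38) and Lamtor4 261 and 241 CPM (-0.11, -0.28 to 0.05). Lamtor2 was thus past the limit there. The share of all genes past the limit was not counted for this gate or for the gating alternatives given in this paragraph.

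The partners of the 10 genes in the pathway were listed by complex, and 41 of the 45 found in the files could be tested over all kept cells. Of these, 3 were higher and 8 lower past the limit of 0.5, shares near those of all genes tested (9.41% and 18.7%), and their median log2 ratio was -0.17. The other Rag and Ragulator genes had 0 of 5 past the limit, from Slc38a9, a lysosomal arginine transporter and sensor (-0.48, -0.70 to -0.27), to Lamtor3 (0.32, 0.25 to 0.38). Lamtor3, with 60.3 CPM in WT and 75.0 CPM in cKO, thus lay on the other side of 0 from its partner Lamtor2, and Lamtor5, the partner of Lamtor4, had 174 and 166 CPM (-0.06, -0.10 to -0.02). GATOR2, which restrains GATOR1, had 0 of 5 past the limit, from Mios (-0.28) to Seh1l (0.48, 0.40 to 0.55), which is also a subunit of the nuclear pore.

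**Figure D5:**
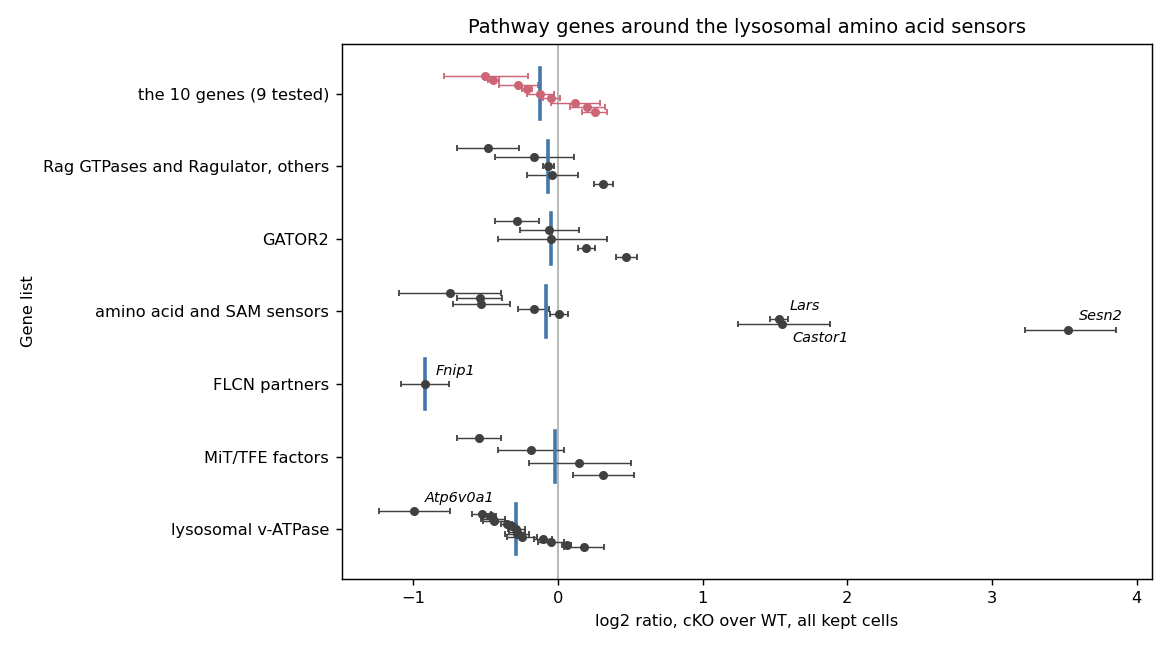
log2 ratio (cKO over WT, all kept cells) of the 9 tested genes of the set (red) and of the tested genes of 6 of the 7 pathway lists (grey), with 95% intervals for counting error; blue lines are list medians. The 9 genes lie between -0.50 and 0.26, and Sesn2 (3.52), Castor1 (1.55) and Lars (1.53) lie far to the right of all others.

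The sensors were the list with the widest spread, with 3 of 8 genes higher and 3 lower past the limit (9.41% and 18.7% of all genes tested). Sesn2 encodes a leucine sensor that binds GATOR2, and it had 90 UMIs in WT and 2155 in cKO, or 2.11 and 24.4 CPM, a log2 ratio of 3.52 (3.23 to 3.85). Castor1, the arginine sensor (Gatsl3 in the files), had 2.25 and 6.63 CPM, a ratio of 1.55 (1.24 to 1.88), and Lars, the leucyl-tRNA synthetase, had 56.4 and 163 CPM, a ratio of 1.53 (1.46 to 1.59). The 3 lower ones were Castor2 (Gatsl2, -0.75), Sesn3 (-0.54) and Bmt2 (B630005N14Rik, -0.53), which encodes the S-adenosylmethionine sensor SAMTOR. The 3 highest ratios of the 41 tested pathway genes were thus those of sensors, and each was above the ratio of any of the 10 genes. Sesn2 was higher in cKO in each gate with WT counts, with log2 ratios of 2.56 in MHC class II, 2.83 in lymphoid-primed, 3.26 in megakaryocyte-primed and 3.44 in ungated cells, and in the HSC gate it had 0 UMIs in WT and 34 in cKO.

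Partners and targets of folliculin and the lysosomal proton pump were listed too. Fnip1, whose product forms the active complex with FLCN, had 13.0 CPM in WT cells and 6.86 CPM in cKO cells (log2 ratio -0.92, -1.09 to -0.75), on the other side of 0 from Flcn. Fnip2, below the minimum level, had 72 and 180 UMIs (0.27, -0.13 to 0.69). Of the MiT/TFE factors, transcription factors for lysosomal genes, of which TFEB and TFE3 are held in the cytoplasm through FLCN and RagC or RagD, 0 of 4 were higher and 1 was lower past the limit, from Tfec (-0.54) to Tfeb (0.31, 0.10 to 0.52). The v-ATPase, which acidifies the lysosome and binds Ragulator, had 0 of 15 genes higher and 2 lower past the limit (9.41% and 18.7% of all genes tested), with a median of -0.29, from Atp6v0a1 (-0.99, -1.24 to -0.75) to Atp6v0a2 (0.18). Atp6v0c, below the limit on low counts, had 79 UMIs in WT and 34 in cKO (-2.25, -2.89 to -1.67). The lists and the 10 genes were compared on the same pair of libraries, and no value here is a test of the pathway.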

How the data were processed

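The data were 2 single-cell libraries of sorted LSK cells, and their groups follow the labelled genotype. The authors deposited a matrix of whole UMI counts for each library, produced by Cell Ranger 6.0.0 according to the submitters' processing notes, with reads aligned to GRCm38 (mm10). The labels name version 2 of the Chromium 3-prime kit, while the methods of the study name another version.

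Cell limits of the study were applied. A cell needed over 200 genes and under 5% hemoglobin UMIs, the upper limit on genes was 4000 in WT and 4500 in cKO, and the mitochondrial share had to be below 10% in WT and 5% in cKO. Of 8869 WT and 9260 cKO barcodes, 8763 and 9151 passed. Doublets, scored by simulated pairs among 50 neighbours in 20 principal components (scikit-learn 1.9.0), were removed at 0.8% per 1000 barcodes, 614 and 675 cells. Counts were summed over cells and scaled to CPM. Exact intervals from scipy 1.17.1 were Clopper-Pearson for shares, Poisson for levels and, for ratios, binomial given the sum of both counts. Their code was tested on simulated data.

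Genes needed a mean of 2 CPM and, in gates, 20 UMIs in both libraries together. The named genes were the 10 genes, pathway genes past 1 on the log2 scale with at least 20 UMIs in the higher library, and the highest and lowest gene of each list described. Castor1, Castor2 and Bmt2 were found by RefSeq synonyms, and of 46 listed genes 1 (Kics2) was not matched. The result of 1 list, KICSTOR, is not reported here beyond its part in the counts over all lists. Members and lists were chosen with earlier results of these data known. Alternatives were other scalings (TMM factors of edgeR 4.0.16 in R 4.3.3, median-of-ratios size factors, cells scaled first, totals that leave out mitochondrial and ribosomal protein genes), other cell filters, depths, gates, minimum levels and prior counts. The HSC gate without Ifitm1 and the depth bins, with and without gated cells, were added after the data were seen. Tables and plots used Python 3.11, numpy 2.4.6, pandas 2.3.3 and matplotlib 3.10.9. Gene positions came from GENCODE M21 and promoters from RefSeq (GRCm38.p6).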

Additional observations from a re-analysis of the deposited data

How the results depend on the processing

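No paired analysis was possible because each group is 1 library with no replicate number, and for the same reason no library could be left out. Over the 11 alternatives for all kept cells, 5 of the 9 genes tested kept their sign in all 11, with log2 ratios from 0.18 to 0.57 for Rraga, 0.03 to 0.75 for Flcn, -0.24 to -0.01 for Lamtor2, -0.46 to -0.22 for Lamtor4 and -0.28 to -0.12 for Nprl2. The highest values of Rraga and Flcn came from cells with 4000 to 8000 UMIs, as did the smallest of Lamtor2 and Lamtor4, and Flcn fell to 0.03 with each cell scaled before averaging. Depdc5 (0.03) and Rragc (0.07) crossed 0 in cells with 4000 to 8000 UMIs, Nprl3 (-0.00) without mitotic cells, and Lamtor1 kept its sign in 7 of 11. In the depth bins added after the data were seen, signs turned for Nprl2 (0.37), Lamtor1 (0.17), Lamtor2 (0.03) and Flcn (-0.37) in cells with 2000 to under 4000 UMIs, and in ungated cells of that depth for Nprl2 (0.32), Lamtor1 (0.18), Nprl3 (-0.52), Flcn (-0.27) and Rraga (-0.09), where cKO had 97 cells. In deeper ungated cells, Lamtor2 (0.011) and Rragc (0.09) turned at 4000 to under 8000 UMIs, and Nprl2 (0.0007), Nprl3 (-0.15) and Rragc (0.07) at 8000 to under 16000. Depdc5 passed the limit of 0.5 without mitotic cells (-0.5538), with the WT mix of gates (-0.5139), without shared barcodes (-0.5059), with 1 prior count (-0.5013) and with each cell scaled first (-0.5005). The median of the 9 genes, -0.12, moved to -0.0245 with TMM factors and to -0.0238 without mitochondrial and ribosomal protein genes, which put the median of all genes at 0.02 in both cases. It was 0.0327 in cells with 4000 to 8000 UMIs, 0.0258 in those with 2000 to under 4000 and 0.011 in ungated cells with 4000 to under 8000. The median of ungated cells was 0.0109 in cells with 4000 to 8000 UMIs. That of the v-ATPase was -0.21 with median-of-ratios factors and -0.19 with TMM factors, and that of the sensors was 0.0139 with TMM factors. In the HSC gate, Rraga turned to -0.45 in cells with 4000 to 8000 UMIs (4 UMIs in 11 WT cells), Lamtor1 to -0.55 with a gate at 5 times the mean and to -0.16 with thinning to 1000 UMIs, and Nprl2 to 0.054 with gating on all UMIs and to 0.24 without Ifitm1. The cause was not tested. The few UMIs of most of the genes in the smaller gates limit what can be resolved there, as the width of the intervals shows.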
